A study of Mus musculus with 8 samples.

Results

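The soft connective tissue collagens and tenomodulin were followed in the inner ear of mice at postnatal day 14. They are 9 genes chosen by name, Col3a1, Col5a1, Col5a2, Col6a1, Col6a2, Col6a3, Col12a1, Col14a1 and Tnmd, and all 9 have a row among the 47517 gene symbols of the files. Whole inner ear RNA was sequenced in 4 libraries of wild-type mice and 4 libraries of littermates heterozygous for a frameshift in Thra that changes how thyroid hormone receptor α1 (TRα1) works. No animal was treated. Gene-level counts cannot show such a mutation, so the genotype rests on the labels. The series title speaks of the cochlea, the sample labels of the inner ear, and neither says whether a library is 1 animal, 1 ear or a pool. P-values therefore measure the spread between these libraries, which may be partly technical.

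Collagens are secreted proteins whose chains wind into a triple helix and then assemble outside the cell. Type III collagen (Col3a1) forms thin fibrils of skin, vessels and loose connective tissue, and type V collagen (Col5a1 and Col5a2) sits inside fibrils and sets how they start and how thick they grow. Type VI collagen (Col6a1, Col6a2 and Col6a3) builds beaded filaments around cells, whereas types XII and XIV (Col12a1 and Col14a1) lie on the surface of fibrils and link them to other matrix. Tenomodulin (Tnmd) is a membrane glycoprotein of tendons and ligaments. In the inner ear such tissue lies in the spiral ligament, under the sensory epithelia, around nerve and vessels, and on the bone of the otic capsule.

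The stretch around the transcription start was available for 6 of the 9 genes in a RefSeq table of GRCm38.p6, at 7 start sites since Col6a2 has 2 of them. Each sequence runs 5′ to 3′ on the strand of the gene, from 250 bases before the start site to 50 bases after it. Those of Tnmd, Col3a1 and Col5a1 are shown because they span the range of base composition within the set and belong to the genes with the 2 largest genotype differences and with 1 of the 2 smallest. Capitals mark the letters TATAAA or GGGCGG, searched on both strands, so that CCGCCC is the reverse form of the second.
Tnmd, chrX:133850758-133851057, plus strand: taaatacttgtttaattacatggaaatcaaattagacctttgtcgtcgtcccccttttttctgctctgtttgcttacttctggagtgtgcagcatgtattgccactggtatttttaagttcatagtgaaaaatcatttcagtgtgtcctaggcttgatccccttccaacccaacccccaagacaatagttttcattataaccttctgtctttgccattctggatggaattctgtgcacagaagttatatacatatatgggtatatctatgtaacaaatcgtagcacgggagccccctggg
Col3a1, chr1:45311288-45311587, plus strand: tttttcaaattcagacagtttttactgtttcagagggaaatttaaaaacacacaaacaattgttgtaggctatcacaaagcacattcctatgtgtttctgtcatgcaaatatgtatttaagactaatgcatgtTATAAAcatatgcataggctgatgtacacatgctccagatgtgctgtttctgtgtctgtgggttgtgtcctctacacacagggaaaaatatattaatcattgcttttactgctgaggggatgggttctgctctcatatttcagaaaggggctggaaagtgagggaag
Col5a1, chr2:27886175-27886474, plus strand: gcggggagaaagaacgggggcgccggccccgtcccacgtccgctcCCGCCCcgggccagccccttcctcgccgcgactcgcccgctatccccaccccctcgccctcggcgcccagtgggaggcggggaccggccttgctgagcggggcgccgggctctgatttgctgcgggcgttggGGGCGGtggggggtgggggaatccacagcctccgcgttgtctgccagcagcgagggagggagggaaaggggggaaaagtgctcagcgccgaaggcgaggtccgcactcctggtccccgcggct

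These start regions had little in common in composition. The G and C content was 37.7% for Col3a1 and 40.0% for Tnmd but 75.0% for Col5a1, against a median of 52.7% over 32851 start regions of the same length. Col3a1 held 0 CpG dinucleotides, Tnmd 4 and Col5a1 34, while the median was 7. Between these lay Col6a1 (57.3%, 3 CpG), Col6a3 (56.3%, 3 CpG) and the start sites of Col6a2 (64.3% with 16 CpG and 56.7% with 6 CpG). TATAAA occurred in the window of Col3a1 alone among the 7, 117 bases before the start site, and in 13.6% of all windows. GGGCGG occurred in Col5a1 and at both start sites of Col6a2, and in 35.7% of all windows. CCAAT, held by 37.4% of all windows, and AGGTCA, the half-site letters bound by nuclear receptors and held by 16.3%, were in 0 of the 7. The E-box letters CANNTG, which the tendon factor Scx and many others can bind, stood 4 times in Col3a1 and 1 time in Col6a1, and in 72.3% of all windows. These are matches of letters and say nothing of binding.

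Libraries held 18930841 to 23064578 counts, of which the 9 genes together took 0.0820% to 0.270%. Values are given in CPM, counts scaled to a common library size after normalization. The lowest count of any of the genes was 107 (Tnmd in wild-type replicate 2), for which counting error alone is 9.67%, and the other 8 genes had at least 596 counts in every library. Wild-type replicate 2 stood apart: it was the lowest of the 8 libraries for 9 of the 9 genes, and haemoglobin genes took 4.88% of its counts against 0.781% to 2.49% in the others. Mutant replicate 3 was the highest library for 6 genes and mutant replicate 1 for 3. The genotype difference of each of the 9 genes is therefore also given without wild-type replicate 2. Of all 21392 genes tested, 0.0421% were called, that is, had an adjusted p under 0.05 in edgeR's quasi-likelihood test.

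In mutant libraries 0 of the 9 genes were called, and all 9 had a positive log2 fold change (mutant minus wild-type), between 0.29 for Col6a3 and 0.88 for Tnmd. Among all genes tested 48.3% had a positive value. Each gene's genotypes overlapped, whereas 2.69% of all genes showed no overlap. An unadjusted p under 0.05 in edgeR was reached by Col6a2, Col14a1 and Tnmd, which is 3 of 9 against 2.21% of all genes that were higher at that level. The 9 genes were chosen with earlier results of these data known, so these comparisons with all genes are not a test of the set. By DESeq2 0 of the 9 were called and 5 had an unadjusted p under 0.05, and by limma-voom the numbers were 0 and 3. For these fits, and for those below with libraries left out, the share of all genes at that level was not counted. Whether a larger count of members only follows a larger count of all genes is therefore not known. A fit with an assumed pairing of libraries, which the labels do not give, called 1 of the 9 and is described at the end. In the unpaired edgeR fit the count at an unadjusted p under 0.05 was not stable. The count of 3 moved with single libraries: it was 1 without wild-type replicate 2, wild-type replicate 4 or mutant replicate 3, 0 without mutant replicate 1 or 4, 6 without wild-type replicate 3 and 5 without mutant replicate 2. The median log2 fold change of the 9 was 0.47, against -0.0061 over all genes, and 0.35 without wild-type replicate 2.

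**Figure D1:**
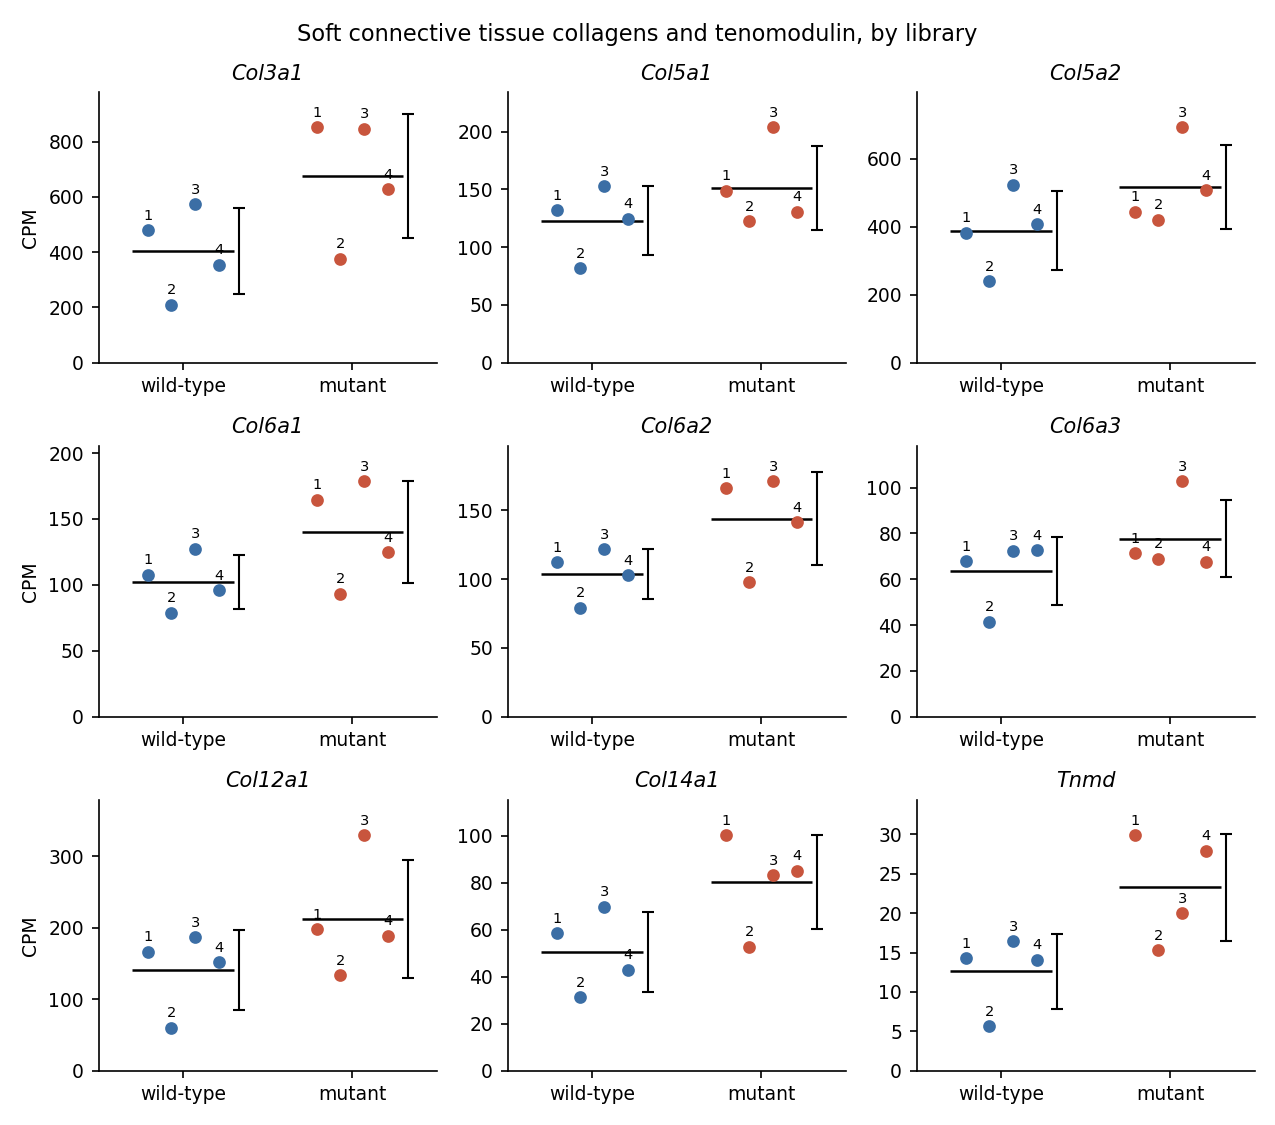
CPM of each gene in the 4 wild-type (blue) and 4 mutant (red) libraries, with replicate numbers, the group mean (line) and the SD (bar), n = 4 each. Wild-type replicate 2 is the lowest point in every panel, and the genotypes overlap in every panel.

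Among the fibril-forming chains Col3a1 (chr1:45311538-45349706, plus strand) showed the largest difference. In order of replicate 1 to 4, here and below, its wild-type libraries held 480, 210.2, 573 and 354 CPM and its mutant libraries 852, 376, 848 and 627 CPM. Of the mutant libraries 3 lay above every wild-type library, and mutant replicate 2 lay below the wild-type mean. The wild-type mean of 404 ± 157 CPM compared with 676 ± 226 CPM in mutants (SD, n = 4 per genotype), and the log2 fold change was 0.74 (SE 0.35, edgeR adjusted p = 0.924), or 0.53 without wild-type replicate 2.

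Col5a2 lies beside Col3a1 on the same chromosome and on the opposite strand (chr1:45374321-45503282). Its values were 382, 239, 523 and 407 CPM in wild-type and 443, 421, 692 and 506 CPM in mutant libraries. Each mutant library exceeded the wild-type mean, but wild-type replicate 3 exceeded 3 of the 4 mutant libraries. Its log2 fold change was 0.41 (SE 0.25, edgeR adjusted p = 0.960), and 0.24 without wild-type replicate 2. Col5a1, its partner chain in type V collagen (chr2:27886425-28039514), stood at 132, 81.6, 153 and 125 CPM in wild-type and 149, 122, 204 and 131 CPM in mutant libraries. Here only mutant replicate 3 lay above the whole wild-type range, and the log2 fold change was 0.30 (SE 0.22, edgeR adjusted p = 0.984), or 0.15 without wild-type replicate 2.

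The type VI chains Col6a1 (chr10:76708792-76726168) and Col6a2 (chr10:76595762-76623630), neighbours on the minus strand, gave nearly the same values. Col6a1 measured 108, 78.9, 127 and 95.9 CPM in wild-type and 165, 93.2, 179 and 125 CPM in mutant libraries. Col6a2 measured 112, 79.2, 122 and 103 CPM in wild-type and 166, 97.7, 171 and 141 CPM in mutant libraries. For both genes mutant replicates 1 and 3 were the highest libraries and mutant replicate 2 fell within the wild-type range. Log2 fold changes were 0.45 (SE 0.22, edgeR adjusted p = 0.925) for Col6a1 and 0.47 (SE 0.19, edgeR adjusted p = 0.924) for Col6a2, and 0.35 and 0.36 without wild-type replicate 2.

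Col6a3 (chr1:90765923-90843971, minus strand), the longest chain of that filament, behaved less evenly. It had 67.8, 41.5, 72.4 and 72.8 CPM in wild-type and 71.5, 69.0, 103 and 67.6 CPM in mutant libraries. Apart from 1 low wild-type and 1 high mutant library, the other 6 values lay between 67.6 and 72.8 CPM in either genotype. The log2 fold change of 0.29 (SE 0.20, edgeR adjusted p = 0.981) was 0.13 without wild-type replicate 2.

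Of the fibril-surface collagens, Col12a1 (chr9:79598991-79718831, minus strand) varied most between libraries. It stood at 166, 60.0, 187 and 152 CPM in wild-type and 198, 134, 329 and 189 CPM in mutant libraries, a 5.49-fold span from lowest to highest. Mutant replicates 1 and 4 lay only just above wild-type replicate 3, and mutant replicate 2 lay below 3 of the 4 wild-type libraries. Its log2 fold change of 0.59 (SE 0.38, edgeR adjusted p = 0.971) became 0.34 without wild-type replicate 2. Col14a1 (chr15:55307750-55520803, plus strand) had 58.6, 31.3, 69.9 and 43.0 CPM in wild-type and 100.3, 52.9, 83.3 and 85.2 CPM in mutant libraries. Here 3 mutant libraries lay above every wild-type library and the fourth lay near the wild-type mean of 50.7 ± 17.0 CPM (SD, n = 4). The log2 fold change was 0.67 (SE 0.27, edgeR adjusted p = 0.924), or 0.49 without wild-type replicate 2.

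Tnmd (chrX:133850980-133865577, plus strand) had the largest log2 fold change of the set. Its counts were low, 107 to 316 in wild-type and 332 to 681 in mutant libraries. In CPM these were 14.3, 5.62, 16.4 and 14.1 in wild-type and 29.9, 15.3, 20.01 and 27.9 in mutant libraries. Mutant replicates 1, 3 and 4 lay above all wild-type libraries, and mutant replicate 2 lay below wild-type replicate 3 alone. The wild-type mean was 12.6 ± 4.78 CPM and the mutant mean 23.3 ± 6.84 CPM (SD, n = 4 per genotype), with a log2 fold change of 0.88 (SE 0.34, edgeR adjusted p = 0.924). Without wild-type replicate 2 it was 0.64, and Tnmd was then the 1 gene of the set with an unadjusted p under 0.05.

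**Figure D2:**
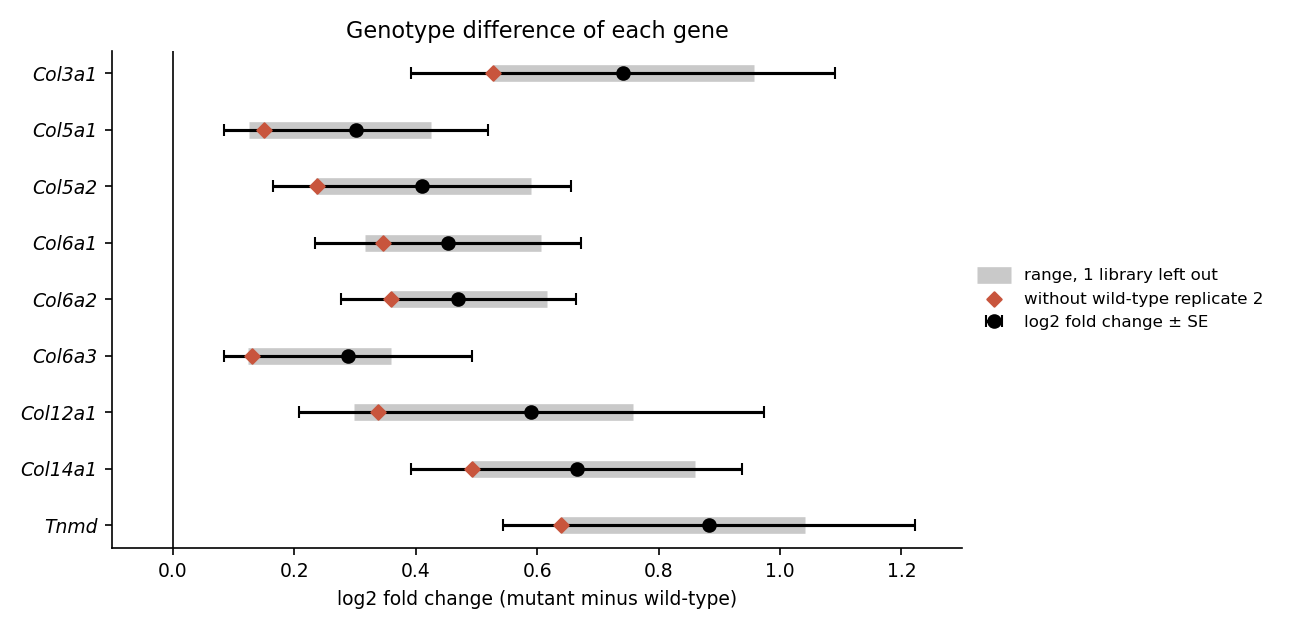
Log2 fold change (mutant minus wild-type) of each gene with its standard error (black), the range over fits that omit 1 of the 8 libraries (grey) and the value without wild-type replicate 2 (red). The ranges run from 0.12 to 1.04, and those without wild-type replicate 2 lie at or near the lower end of each range.

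Libraries were also compared over the whole set. Centred on each gene's own mean, the average of the 9 log2 CPM values was -0.96 in wild-type replicate 2, between -0.21 and 0.14 in the other wild-type libraries and -0.20 in mutant replicate 2. In mutant replicates 1, 3 and 4 it was 0.43, 0.61 and 0.26. The collagen profiles lay within 0.11 (Col6a2) to 0.20 (Col3a1) of the collagen mean profile, as the mean absolute log2 difference over 8 libraries, and that of Tnmd lay 0.31 from it. That mean holds each collagen itself but not Tnmd, so these distances cannot show that Tnmd behaved differently. The haemoglobin share was highest where the collagens were lowest and lowest, at 0.781%, in mutant replicate 3, where 6 of the 9 genes peaked. The part of this in the genotype difference was not tested.

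**Figure D3:**
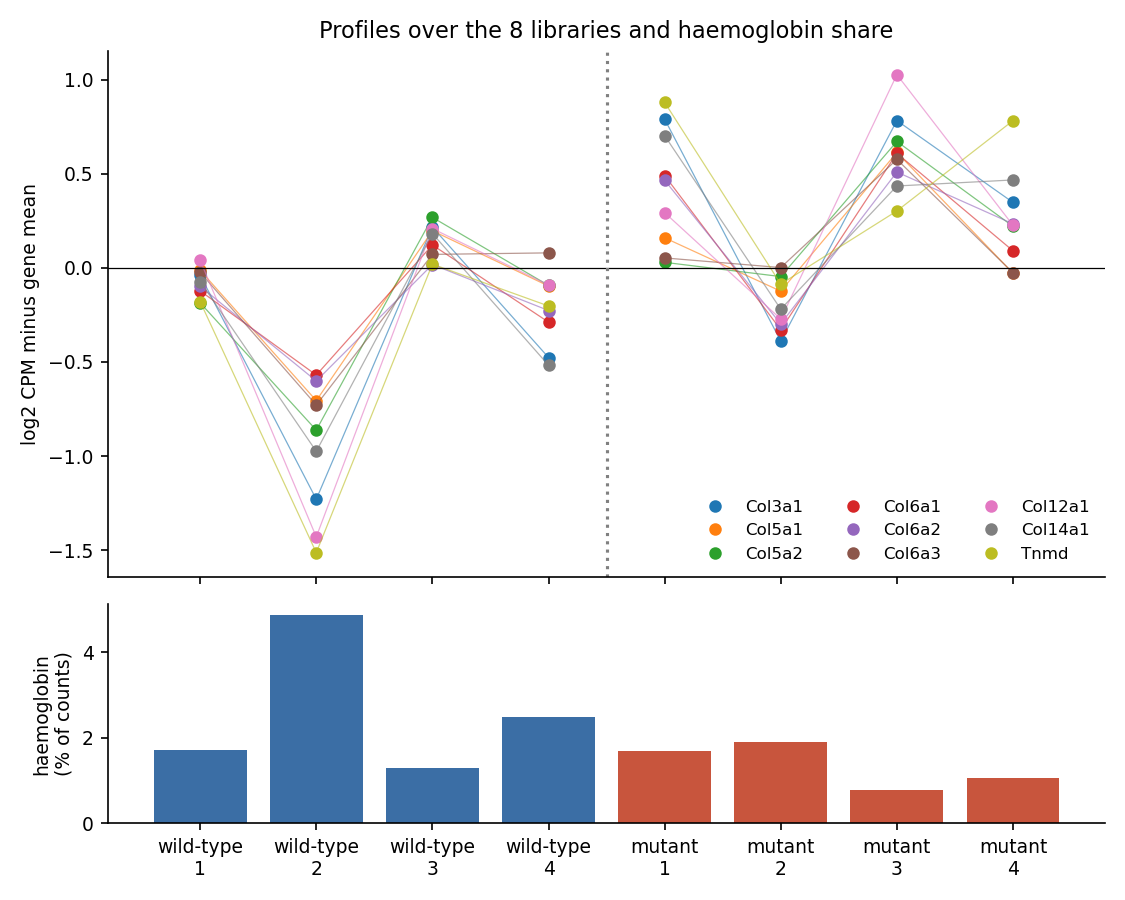
Upper panel, log2 CPM of each gene minus its mean over the 8 libraries, with lines joining libraries of a genotype only to guide the eye. Lower panel, share of counts from haemoglobin genes, which peaks at 4.88% in wild-type replicate 2, the library where all 9 genes are lowest.

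To compare levels between genes, CPM was divided by the length in kilobases of each gene's principal transcript in GENCODE M21. This assumes that counts grow with transcript length, which the sources used here do not settle. In wild-type libraries Col3a1 was the highest of the set at 72.6 ± 28.3 CPM per kilobase, followed by Col5a2 at 58.5 ± 17.6 (SD, n = 4 each). By this length Col3a1 exceeded Col5a2 in each wild-type library, though by little in replicate 2 (37.8 against 36.1) and replicate 4 (63.7 against 61.5). Col6a2 (26.3 ± 4.61) and Col6a1 (25.0 ± 4.97) came next, and which of them was higher varied between libraries. Col5a1 (14.6 ± 3.55), Col12a1 (12.3 ± 4.87), Tnmd (9.32 ± 3.53), Col14a1 (8.93 ± 2.99) and Col6a3 (7.07 ± 1.66) followed. Col5a1 exceeded Col12a1, and Col12a1 exceeded Tnmd, in each wild-type library, while the order of Tnmd, Col14a1 and Col6a3 varied between libraries. The type I chains Col1a1 and Col1a2, the main fibril collagens of bone and tendon, stood at 682 ± 157 and 584 ± 174 CPM per kilobase. The order depended in part on which length was used. With the merged length of all annotated exons, a choice made after seeing the data, Col6a2 stood at 12.5 ± 2.19 CPM per kilobase against 23.4 ± 4.66 for Col6a1 (SD, n = 4 each), and below Col5a1 at 14.5 ± 3.52. Col3a1 and Col5a2 were again the highest of the set, at 41.2 ± 16.02 and 40.4 ± 12.2, and Col6a3 the lowest at 5.32 ± 1.25. The coefficient of variation between wild-type libraries ran from 17.5% for Col6a2 to 39.7% for Col12a1, well above counting error, and in mutant libraries from 21.6% for Col6a3 to 39.0% for Col12a1.

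Chains that share a molecule or a fibril were also compared as ratios within a library, which cancels library size. Of 5 ratios 0 differed between genotypes after adjustment, and each overlapped. Col6a2 to Col6a1 was the steadiest, with a per-length mean of 1.06 ± 0.0525 for wild-type and 1.08 ± 0.0771 for mutants (SD, n = 4 per genotype). Per merged exon length that ratio was 0.536 ± 0.0266 and 0.545 ± 0.0390, and a genotype difference in log2 ratio does not depend on the length. The log2 difference was 0.025 (exact permutation p = 0.657, adjusted over the 5 ratios 0.657, two-sided). Col6a3 to Col6a1 was 0.283 ± 0.0463 and 0.261 ± 0.0576 (log2 difference -0.13, exact permutation p = 0.543, adjusted 0.657). Col5a2 exceeded its partner Col5a1 per length in every library, by 3.67 to 4.92 times (2.56 to 3.43 times per merged exon length), with means of 3.97 ± 0.331 and 4.34 ± 0.465 (log2 difference 0.13, exact permutation p = 0.171, adjusted 0.429). Col3a1 to Col1a1 had the largest difference, at 0.104 ± 0.0236 in wild-type and 0.161 ± 0.0593 in mutant libraries (0.0653 and 0.101 per merged exon length, log2 difference 0.59, exact permutation p = 0.114, adjusted 0.429). Mutant replicates 1, 3 and 4 lay above all wild-type libraries in that ratio, replicate 3 only just, while mutant replicate 2 lay below wild-type replicates 1 and 3. Col5a1 to Col1a1 was 0.0214 ± 0.00123 and 0.0237 ± 0.00342 (log2 difference 0.14, exact permutation p = 0.286, adjusted 0.476). The smallest p that 4 against 4 libraries can give is 0.0286. With single libraries left out, the log2 difference of Col3a1 to Col1a1 lay between 0.37 (without mutant replicate 1) and 0.75 (without mutant replicate 2), and it was 0.49 without wild-type replicate 2. By the form of the sample titles, described below, it was 0.96 among libraries with 1 number and 0.23 among those with 2. That of Col6a3 to Col6a1 lay between -0.26 (without mutant replicate 2) and -0.0035 (without mutant replicate 1), that of Col5a1 to Col1a1 between 0.049 (without mutant replicate 1) and 0.21 (without mutant replicate 3), and that of Col5a2 to Col5a1 between 0.066 (without mutant replicate 4) and 0.19 (without mutant replicate 1).

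**Figure D4:**
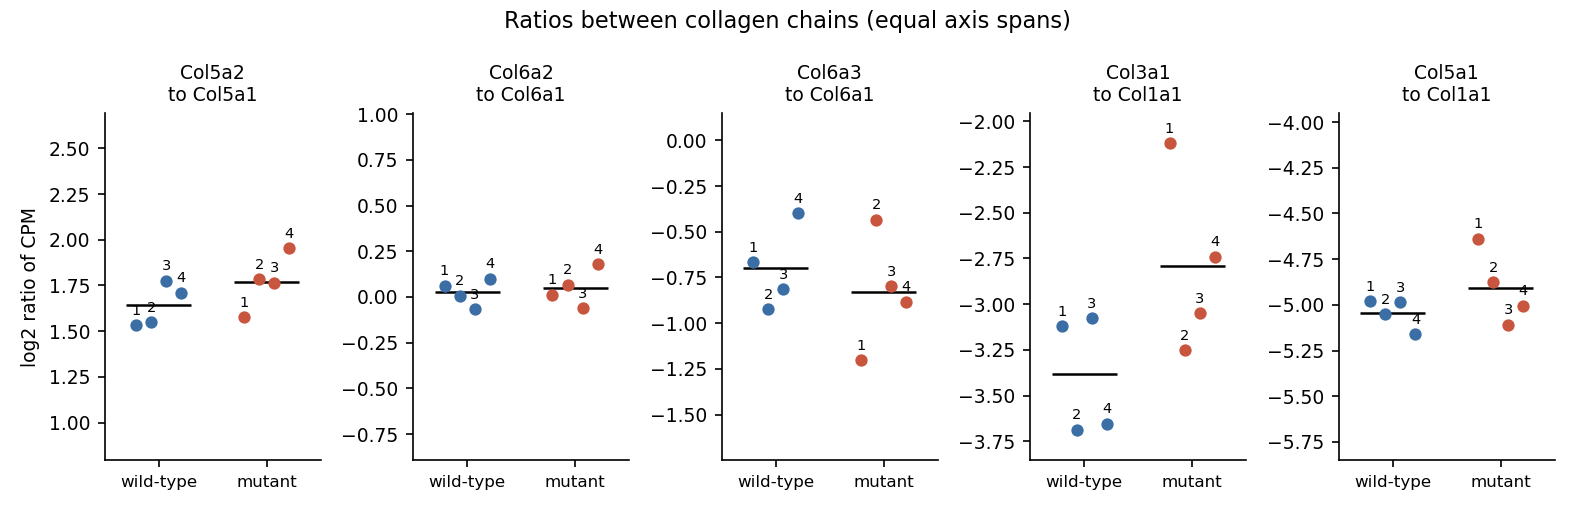
Log2 ratio of CPM between pairs of collagen chains in each library, with replicate numbers and group means (lines), n = 4 each, on axes of equal span. The Col6a2 to Col6a1 ratio stays within -0.067 and 0.18 over all 8 libraries, whereas Col3a1 to Col1a1 runs from -3.69 to -2.12.

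Sample titles hold either 1 or 2 numbers, with 2 libraries of each form in each genotype, and the labels do not explain the numbers. With genotype in the model, 0 of the 9 genes were called between title forms in edgeR, against 9.39% of all genes called. At an unadjusted p under 0.05 there were also 0 of the 9, and the share of all genes at that level was not counted. The largest value was that of Tnmd, 21.6 CPM on average with 1 number and 14.3 CPM with 2 (log2 fold change -0.54, SE 0.31, edgeR adjusted p = 0.308). Without wild-type replicate 3 Tnmd was called (-0.95, edgeR adjusted p = 0.0397). Genotype differences within a title form, 2 against 2 libraries, ranged from -0.0060 (Col6a3) to 1.04 (Tnmd) with 1 number and from 0.40 (Col6a1) to 0.91 (Col12a1) with 2 numbers. Tnmd was called among libraries with 1 number (edgeR adjusted p = 0.0459), and its value with 2 numbers was 0.68. A test of the difference between the forms called 0 of the 9 genes in edgeR, against 0.0795% of all genes called. At an unadjusted p under 0.05 it again gave 0 of the 9, without a share of all genes at that level.

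Other genes of collagen biology were followed in 5 lists, in which 0 genes were called. Among other fibril and network collagens 12 of 18 tested genes had positive values (median log2 fold change 0.25, 1 higher at an unadjusted p under 0.05). These included Col1a2 (0.38, SE 0.26) and Col1a1 (0.19, SE 0.26). The 3 with the smallest p were the fibril-associated Col16a1 (0.74, SE 0.30, edgeR adjusted p = 0.924), the network-forming Col8a2 (0.44, SE 0.24, 0.931) and the transmembrane Col13a1 (0.35, SE 0.23, 0.967). Genes for processing and crosslinking, which fold chains in the endoplasmic reticulum, trim them and join fibrils, were positive for 28 of 31 (median 0.21, 0 at an unadjusted p under 0.05). Its first genes were the crosslinking oxidases Loxl4 (0.54, SE 0.24) and Lox (0.52, SE 0.27) and the prolyl isomerase Fkbp14 (0.37, SE 0.19). By comparison 48.3% of all genes were positive and their median was -0.0061. The lists were chosen with earlier results of these data known, so this comparison is not a test of them. Every gene named in this paragraph was lowest in wild-type replicate 2, and list values without that library are not given here.

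Collagen receptors were positive for 10 of 13 (median 0.21, 1 higher at an unadjusted p under 0.05). Ddr2, a receptor tyrosine kinase for fibrillar collagens, had 0.38 (SE 0.15, edgeR adjusted p = 0.924), and Cspg4, a proteoglycan that binds type VI collagen, had 0.38 (SE 0.21). The platelet collagen receptor Gp6 had -0.60 (SE 0.27). Breakdown genes were divided, 8 of 14 positive (median 0.10, 1 higher at an unadjusted p under 0.05), with the protease inhibitor Timp3 (0.26, SE 0.11) and the proteases Mmp16 (0.42, SE 0.23) and Mmp2 (0.49, SE 0.27) first. Of the tendon and ligament list, 12 of 13 were positive (median 0.34, 4 higher at an unadjusted p under 0.05). Its first genes were Fmod, a proteoglycan that binds fibrils (0.86, SE 0.16, edgeR adjusted p = 0.280), and the matrix proteins Comp (0.53, SE 0.15, 0.879) and Thbs4 (0.91, SE 0.27, 0.907). Fmod stood at 68.3, 74.6, 86.7 and 80.0 CPM in wild-type and 178, 103, 149 and 132 CPM in mutant libraries, and unlike the 9 genes it was not lowest in wild-type replicate 2. Neither were Ddr2, Gp6, Mmp16, Comp and Thbs4, whereas Cspg4, Timp3 and Mmp2 were lowest in that library. Fmod and Comp, the latter also on the chondrocyte list below, were the 2 genes of the tendon and ligament list without overlap of the genotypes. The tendon transcription factors Mkx and Scx had 0.42 (SE 0.17) and 0.18 (SE 0.16).

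**Figure D5:**
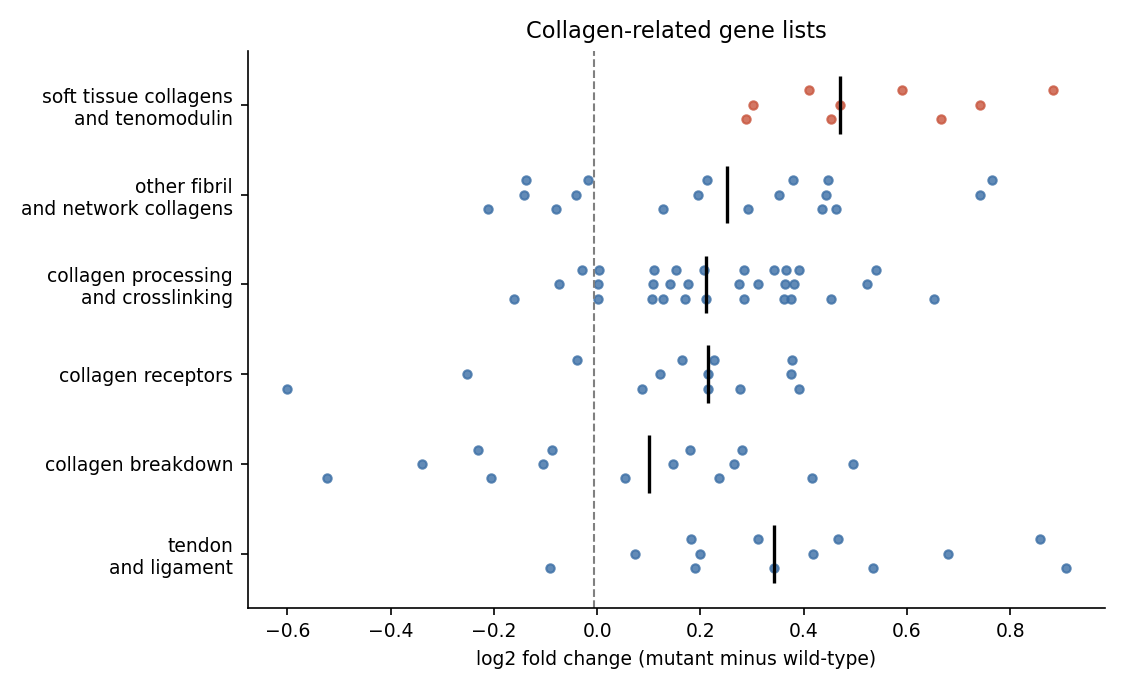
Log2 fold change (mutant minus wild-type) of every tested gene of the set (red) and of the 5 collagen-related lists (blue), with list medians as bars and the median of all genes tested as a dashed line. Medians run from 0.10 for breakdown genes to 0.47 for the 9 genes, and 0 genes shown were called.

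Markers of cell types that could hold this RNA were summed per library. Fibroblast markers (9 genes, 7 positive, 0 called) summed to 1083 to 1652 CPM in wild-type and 1399 to 1754 CPM in mutant libraries. Those of osteoblasts (7 genes, 5 positive, 0 called) summed to 2554 to 4472 and 3217 to 5019 CPM, so bone was present in every library. A sum is set mostly by its highest genes. Bglap (mean 1381 CPM in wild-type, 1191 in mutant libraries) and Bglap2 (1049 and 898) made up most of the wild-type osteoblast sum and were its 2 negative genes. Ibsp was higher in mutant libraries (800 and 1407). Otic fibrocyte markers (5 genes, 4 positive, 0 called) gave 3771 to 5634 and 4616 to 6130 CPM, and chondrocyte markers (6 of 7 genes in the files, 4 of 5 tested positive, 0 called) 136 to 181 and 163 to 201 CPM. Markers were matched by symbol, so a marker filed under another name would count as missing. The chondrocyte sum leaves out Lect1, which is on the tendon and ligament list. The Lect1 means (404 for wild-type, 557 for mutant, in CPM) exceed every chondrocyte sum. That sum is therefore no measure of all cartilage RNA. In each of the 4 sums above wild-type replicate 2 was the lowest library. It was also the lowest for the smooth muscle and pericyte, macrophage and supporting cell sums given below, and not for the other sums. The part of these cell types in the collagen values was not tested. In bulk RNA fewer cells of a type and less RNA per cell cannot be told apart.

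Smooth muscle and pericyte markers (5 genes, 2 positive) summed to 217 to 331 and 221 to 357 CPM, and skeletal muscle markers (7 genes, 2 positive) to 8.79 to 18.0 and 7.40 to 11.97 CPM. Schwann cell markers (5 genes, 4 positive) gave 5726 to 9360 and 8009 to 10141 CPM, macrophage markers (4 genes, 3 positive) 133 to 170 and 141 to 152 CPM. The list for mesothelium and meninges (5 genes, 2 positive) gave 5197 to 8129 and 3807 to 6994 CPM. Nearly all of that sum was Ptgds, at a mean of 6215 of 6379 CPM in wild-type libraries. None of these lists held a called gene or a marker at 0 counts in all libraries. Red blood cell markers (5 genes, 0 positive, 0 called) ranged from 12810 to 49442 CPM in wild-type and from 7649 to 18902 CPM in mutant libraries, with wild-type replicate 2 at the top. Mucosal epithelium markers (6 genes, 4 called lower) summed to 184 to 622 CPM in wild-type and 2.28 to 4.08 CPM in mutant libraries without overlap, and their part in the collagen difference was not tested. Most of that wild-type sum was Bpifa1, at a mean of 299 of 355 CPM, and all 6 markers had negative values. With the rows of haemoglobin genes and of these mucosal markers left out before normalization, the median of the 9 genes was again 0.47. Leaving out rows takes no blood or mucosa out of the libraries, so their part stayed untested. As a check of the tissue, hair cell markers (5 genes) summed to 136 to 182 and 130 to 175 CPM and supporting cell markers (5 genes) to 743 to 1051 and 813 to 1017 CPM.

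Genes outside the set with the closest profile to the collagen mean were sought among 19374 genes with a mean of at least 1 CPM, by the mean absolute difference in centred log2 CPM over the 8 libraries. They were Fkbp7, a prolyl isomerase of the endoplasmic reticulum (0.071), Col1a2 (0.075), P3h3 of the prolyl 3-hydroxylase family (0.080), the endoplasmic reticulum peroxidase Gpx7 (0.080) and the skeletal homeobox factor Dlx5 (0.083). Their log2 fold changes lay between 0.36 for Fkbp7 and 0.54 for Dlx5, with 0 called. No gene came as close to Tnmd. Its profile is that of 1 gene with low counts, whereas the collagen profile is a mean over 8 genes, so the distances cannot be compared between them. Nearest to Tnmd were Kctd12, an auxiliary subunit of GABA-B receptors (0.18), and Gm26778 (0.19). Next came the transcription factor gene Bhlhe22 (0.20), the monooxygenase-like Moxd1 (0.21) and AC125167.1 (0.22). Of these 5, Moxd1 (23.8 ± 6.71 against 44.8 ± 11.6 CPM, SD, n = 4 each, log2 fold change 0.91, edgeR adjusted p = 0.877) showed no overlap of the genotypes. Among all genes tested 2.69% showed none, in either direction. Near genes were picked by likeness over libraries of both genotypes. Genotype differences like those of the collagens or of Tnmd are thus built into the choice and are no separate result. All 8 points of a profile come from the same libraries, so shared library composition enters each distance.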

How the data were processed

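Whole inner ear RNA of 4 wild-type and 4 heterozygous mutant mouse libraries was sequenced. Each deposited file holds whole-number counts per gene symbol, not normalized. The tools listed, without version, are FastQC, STAR and HTSeq, and the build is mm10, per the submitters' processing notes. RNA was purified with TRIzol and a silica microcolumn and libraries carried unique molecular identifiers, per the labels' protocols. For the annotation, strand setting and use of those identifiers, details were not given in the sources used here. Without the strand setting, reads of overlapping genes could be shared: 141 exonic bases of Col3a1 and 212 of Col5a1 overlap another gene in GENCODE M21 (GRCm38), and 0 of the other members.

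Counts were fitted with edgeR 4.0.16 (R 4.3.3): default expression filter (21392 of 33027 symbols with a count), TMM normalization, robust quasi-likelihood, genotype as the only term, Benjamini-Hochberg adjustment over all genes tested, call at an adjusted p under 0.05. The standard error is the log2 fold change divided by the square root of F. For ratios, exact permutation tests (two-sided, scipy 1.17.1) were run. DESeq2 1.42.0, limma 3.58.1 (voom), other normalizations and filters, title form, a block and leaving out libraries were alternatives. Any pair of libraries differed by a chi-square of at least 17.3 per degree of freedom, so none was a duplicate. Log2 profiles used a prior count of 2. Symbols of date form (15) were kept.

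Genes named were the 9 members, Col1a1, Col1a2, per list the 3 tested genes with the smallest p, and the 5 nearest profiles. Mkx and Scx were named after their values were seen. Members and lists were chosen with earlier results of these data known.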

Additional observations from a re-analysis of the deposited data

Results flagged for a closer look

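Within groups of 4 libraries, 1 library of Col6a3 stood far from the other 3 in each genotype, by the gap to the nearest library divided by the range of the group. In wild-type the low value of replicate 2 (41.5 CPM against 67.8 to 72.8 CPM) gave 0.839. In mutant the high value of replicate 3 (103 CPM against 67.6 to 71.5 CPM) gave 0.891. These were 2 of 28 groups examined, and chance flags about 1 in 20.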

How the results depend on the processing

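All 9 members kept a positive log2 fold change under each alternative tried, except Col6a3 among titles with 1 number (-0.0060). With single libraries left out the member median lay between 0.32 and 0.62, 0 members were called, 0 to 6 were higher at an unadjusted p under 0.05, and 6 to 14 genes were called among all tested. The cause of these shifts was not tested.

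Members higher at an unadjusted p under 0.05 numbered 5 by DESeq2, 1 with title form as covariate, 7 among titles with 1 number and 0 among those with 2. The share of all genes at that level was not counted in these fits, nor in the block fit below. Genes called among all tested numbered 9 in the reported fit, 68 by DESeq2, 17 by limma-voom, 5 with title form, 62 among titles with 1 number, where 1 member (Tnmd) was called, and 2 without haemoglobin and mucosal genes. That last setting leaves out 4 mucosal markers that were called in the reported fit, so part of its fall was fixed in advance. With libraries of neighbouring title numbers as a replicate block, an assumed pairing, 1 member was called (Col3a1, log2 fold change 0.76, edgeR adjusted p = 0.0451). Its SE was 0.072 there against 0.35 in the reported fit. In the block fit 8 members were higher at an unadjusted p under 0.05 and 29 genes were called in all. Deviations of same-numbered libraries correlated at 0.13, 0.25, 0.19 and -0.038 for replicates 1 to 4. For wild-type replicates 1, 2 and 3 the highest value was with the mutant library of the same number. For wild-type replicate 4 it was with mutant replicate 1 (0.15). The labels give no pairing, so the numbers were not taken to pair the libraries, and whether they do is not settled.

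The Col6a2 to Col6a1 log2 difference ranged from -0.019 to 0.062 with libraries left out, and that of Col6a3 to Col6a1 turned to 0.25 among titles with 2 numbers. With a library left out the smallest exact permutation p is 0.0571, within a title form 0.333 and over 4 pairs 0.125, so no ratio could pass there. Between title forms 0 to 1 members were called with libraries left out. Counting error was largest for Tnmd, 9.67% at its lowest count of 107, and below the spread between libraries. With merged exon lengths, an alternative chosen after seeing the data, the wild-type level per kilobase of Col6a2 was 12.5 in place of 26.3 CPM.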
